A study of Mus musculus with 28 samples.

Results

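F3, the mouse gene for tissue factor, was followed through porous polycaprolactone (PCL) scaffolds implanted in female BALB/c mice. F3 is 1 of 584 genes on the TaqMan OpenArray Mouse Inflammation Panel, where 1 of the 648 assays measures it. It was selected on measured values, 2 patterns of its own level: its lower level in the implants of tumor-bearing mice at day 14, and its higher level in healthy mice at day 14 than at day 7 or day 21. Both patterns are given here as a description, without tests. The 28 mice had either been inoculated with 4T1-luc2-tdTomato cells, a labelled mouse mammary carcinoma line, or were tumor-free controls of the same day. Implants were taken on day 7 (3 healthy, 3 tumor-bearing), day 14 (8 and 8) and day 21 (3 and 3) after inoculation, 1 implant per mouse. All mice carried the scaffold, so no group shows tissue without an implant, and the name of the cell line also stands in the labels of the healthy mice, which were grouped by their condition at analysis. The mice's age is not given in the sources used here.

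Tissue factor is a membrane protein that binds factor VII and its active form and so starts the extrinsic pathway of blood coagulation. The complex activates factor X, which leads to thrombin, and its proteases also signal to cells through protease-activated receptors. By structure it belongs to the class II cytokine receptor family. Cells around vessels, fibroblasts and epithelia carry it constitutively, monocytes and endothelial cells can be induced to make it, and many tumor cells express it.

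F3 lies on chromosome 3 of GRCm38.p6, from 121723537 to 121735052 on the plus strand. Its assay spans an exon junction and gives a product of 119 bases. The 250 bases before the gene's RefSeq start, chr3:121723287-121723536 on the plus strand, are shown because AP-1, NF-kappaB and Sp1 proteins are the textbook regulators of this promoter and genes of AP-1 and NF-kappaB subunits were measured; capitals mark the motif matches.
F3 promoter: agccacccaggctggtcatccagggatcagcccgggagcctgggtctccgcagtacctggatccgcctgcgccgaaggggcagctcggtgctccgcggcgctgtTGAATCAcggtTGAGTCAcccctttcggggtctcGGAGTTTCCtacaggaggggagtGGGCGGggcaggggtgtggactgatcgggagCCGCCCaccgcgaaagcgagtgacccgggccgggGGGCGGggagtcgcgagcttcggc
The AP-1 motif TGANTCA was found 2 times, from 146 to 140 and from 135 to 129 bases before the start. Of 32851 mouse promoters of the same length, 6.75% held this motif at least once and 0.338% held it 2 times or more. The kappaB-like motif GGAGTTTCC stood once, from 112 to 104 bases before the start, and 0.262% of promoters held it. Sp1's motif GGGCGG matched 3 times, the middle one on the minus strand, and 32.7% of promoters held it at least once. The EGR1 motif GCGGGGGCG was not in this window, and 2.57% of promoters held it. Both strands were searched and no matches overlapped. Among the panel genes with a promoter sequence, 10.1% held the AP-1 motif and 0.368% the kappaB-like motif. These matches describe letters of the reference and are not measured binding sites.

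F3 was readily measured in the implants. It gave a quantification cycle (Cq, the number of PCR cycles needed to detect the product, so that lower means more transcript) between 18.5 and 20.8 in 26 of 28 samples. The 2 samples without a value were day 14 healthy replicate 13 and day 14 tumor-bearing replicate 21, which ran on the same physical panel and lacked 173 and 159 assays, against 61 to 113 in the other samples. They shared 104 missing assays. Whether their missing F3 reactions reflect a low level was not tested. Levels below are relative quantities, the authors' normalized values, on a log2 scale on which 0 equals the mean of 5 reference genes. A level is compared between samples of 1 assay and never between genes, though sums of levels over some marker assays are given below.

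Healthy mice at day 14 had the highest F3 of the 6 groups. Their 7 measured values ran from -1.50 to 0.30 with a median of -0.92, and their mean was -0.79 ± 0.59 (SD, n = 7). The 7 tumor-bearing mice of that day ran from -1.92 to -1.37 with a median of -1.64, and their mean was -1.63 ± 0.19 (SD, n = 7). On the linear scale the means were 0.625 ± 0.293 and 0.325 ± 0.0413 (SD). The 2 groups overlapped slightly: 6 of 7 healthy mice lay above every tumor-bearing mouse, 5 of 7 tumor-bearing mice lay below every healthy one, and the healthy mouse was the higher in 47 of 49 possible pairs of mice. Those 6 healthy mice also lay above every sample of the other 5 groups, where the highest value was -1.30. The lowest of the 6, replicate 9, was all but level with that sample, at relative quantities of 0.4072 and 0.4071.

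At day 7 the healthy mice had F3 levels of -1.43, -1.83 and -1.60, and the tumor-bearing mice -1.30, -1.39 and -1.53. The tumor-bearing values sat within a narrow band that overlapped the healthy ones. By day 21 the healthy mice had -1.72, -1.79 and -2.25 and the tumor-bearing mice -2.13, -1.40 and -1.89. These sets were interleaved, with the lowest value in a healthy and the highest in a tumor-bearing mouse.

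Ordered by mean, F3 was highest in day 14 healthy mice, then came day 7 tumor-bearing (-1.41 ± 0.12, SD, n = 3), day 7 healthy (-1.62 ± 0.20, SD, n = 3), day 14 tumor-bearing, day 21 tumor-bearing (-1.80 ± 0.37, SD, n = 3) and day 21 healthy (-1.92 ± 0.29, SD, n = 3). No 2 neighbours in this order were separate, since samples of each pair of neighbours overlapped. The first step, from day 14 healthy to day 7 tumor-bearing, was 0.61 on the log2 scale and placed 19 of 21 sample pairs in order. Further steps were 0.21, 0.01, 0.17 and 0.12.

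**Figure D1:**
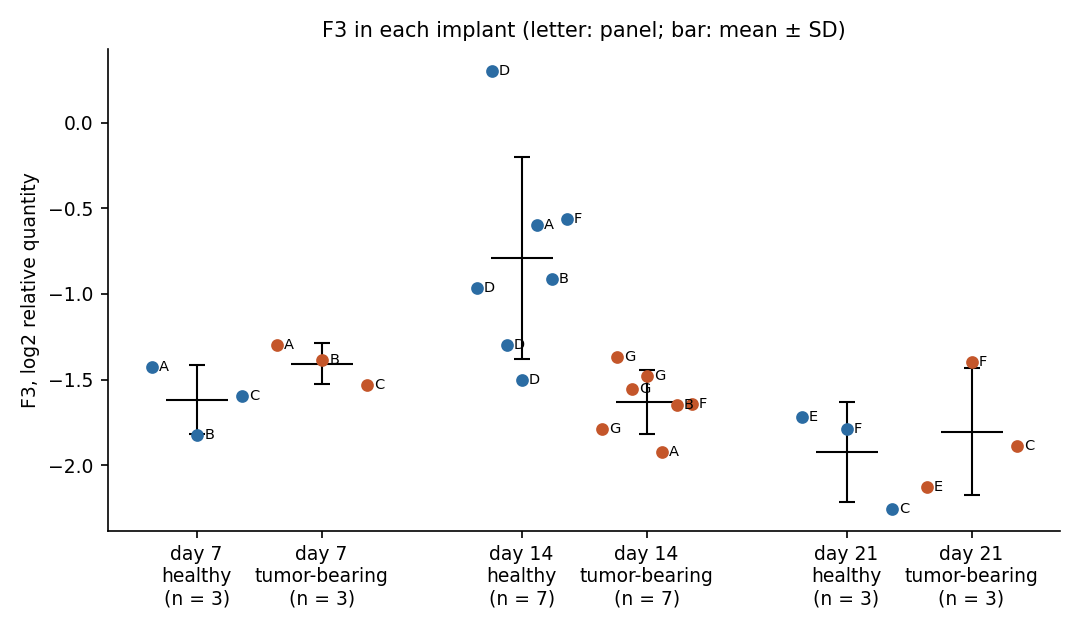
F3 log2 relative quantity (y axis) in each of the 26 implants with a value, by day and condition; blue points are healthy and orange points tumor-bearing mice, letters name the physical panel (A to G), and black bars give the mean ± SD. The day 14 healthy mice spread from -1.50 to 0.30, while the 7 day 14 tumor-bearing mice lie between -1.92 and -1.37.

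The spread of F3 differed between the day 14 groups as well as its level. The SD of the healthy group was 3.18 times that of the tumor-bearing group. Healthy replicate 8, at 0.30, stood 2.37-fold above the median of the other 6 healthy mice (-0.94). Without that mouse the healthy mean was -0.97 ± 0.37 (SD, n = 6), still above the highest mean of the other groups.

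In the limma model over all assays, F3 at day 14 was 0.552-fold as high in tumor-bearing as in healthy mice (95% interval 0.408 to 0.747), a log2 difference of -0.86 ± 0.21 (SE). Leaving out healthy replicate 8 gave -0.69. In the authors' deposited table the day 14 fold change of F3 was 0.559. Of 588 assays tested at this day, 14 passed an adjusted p of 0.05, or 2.38%, 10 of them upward and 4 downward with the tumor, and the assays' median log2 difference was -0.08. Because this contrast led to the choice of F3, it is given without a p. In a bulk extract, fewer cells that express F3 and less F3 transcript per cell cannot be told apart.

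The other days gave no detectable condition difference in F3, with wide intervals. At day 7 the log2 difference was 0.21 ± 0.30 (SE), or 1.16-fold (95% interval 0.748 to 1.79), with an adjusted p of 0.997 by limma and p = 0.2 by a two-sided exact permutation test, whose smallest possible p is 0.1. No assay passed at day 7 (0 of 565, or 0%, by limma), and 13 had an unadjusted p under 0.05. At day 21 the F3 difference was 0.12 ± 0.30 (SE), or 1.08-fold (95% interval 0.70 to 1.68), with an adjusted p of 0.995 by limma and p = 0.8 by the exact permutation test. Here 7 of 573 assays passed, or 1.22%, and 2, 3 and 3 passed without healthy replicates 23, 24 and 25. The healthy mice of days 7 and 21 are also those of the time course that chose the gene, so neither test is independent of that choice. The day 21 estimate turned negative without healthy replicate 25 (-0.05) or tumor-bearing replicate 27 (-0.0784), and against Gapdh (-0.0137) or Ywhaz (-0.0413) as the only reference gene. Both intervals hold differences in either direction. In the authors' deposited table the F3 fold changes at days 7 and 21 were 1.16 and 1.08.

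Within conditions, the larger steps of F3 between days were those of the healthy mice. From day 7 to day 14 the healthy estimate was 1.77-fold (log2 0.82 ± 0.26, SE; 95% interval 0.27 to 1.37), and from day 14 to day 21 it was 0.456-fold (-1.13 ± 0.26, SE; 95% interval -1.68 to -0.59). Healthy day 21 less day 7 was -0.32 ± 0.31 (SE), and 0.0442 against Gapdh alone. Giving the missing reactions the file's largest Cq, which places healthy replicate 13 far below the rest, turned the first 2 steps to -1.70 and 2.67 (each ± 3.53, SE). These are descriptions of a known pattern. In tumor-bearing mice the same steps were -0.25 ± 0.26 and -0.16 ± 0.26 (SE), each with an interval that spans 0; the second turned to 0.00497 without replicate 26 and to 0.0195 against Gapdh alone. Over the whole span from day 7 to day 21, tumor-bearing F3 differed by -0.41 ± 0.31 (SE; 0.753-fold, adjusted p = 0.827 by limma; p = 0.2 by the exact permutation test), a contrast in which 3 of 567 assays passed, or 0.529%.

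The condition difference of F3 itself was also set against that of other days. Day 14 less day 7 it was -1.07 ± 0.37 (SE; 95% interval -1.83 to -0.30), and day 21 less day 14 it was 0.97 ± 0.37 (SE; 95% interval 0.21 to 1.74). Both of these use the day 14 samples that led to the choice of the gene and carry no test. Averaged over the 3 days, the difference was -0.18 ± 0.16 (SE).

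Mice that shared a physical panel allow F3 to be compared within 1 run. At day 14 the tumor-bearing mouse was lower in 3 of 3 pairs, with differences of -1.33 on panel A, -0.73 on panel B and -1.08 on panel F (mean -1.05 ± 0.30, SD, n = 3). At day 7 it was higher in each pair, by 0.13 on panel A, 0.44 on panel B and 0.06 on panel C. Day 21 pairs were mixed, with 0.37 on panel C, -0.41 on panel E and 0.39 on panel F. The day 14 pairs are among the mice whose difference chose the gene, so their direction is no separate support for it.

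**Figure D2:**
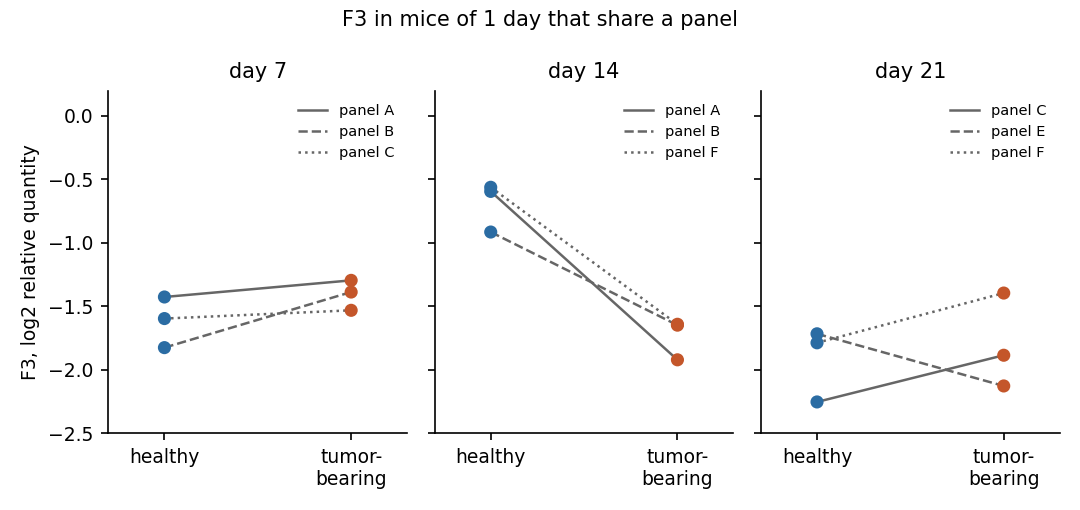
F3 log2 relative quantity (y axis) in healthy (blue) and tumor-bearing (orange) mice of the same day, with a line joining the mice that shared a panel. Each of the 3 day 14 lines falls, by 0.73 to 1.33, while the day 7 lines rise by 0.06 to 0.44 and the day 21 lines go both ways.

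The rest of day 14 rested on panels of 1 condition. Panel D held 4 healthy mice with F3 from -1.50 to 0.30 (mean -0.87 ± 0.81, SD), and panel G held 4 tumor-bearing mice from -1.79 to -1.37 (mean -1.55 ± 0.18, SD). The difference between those panels was -0.68, and there panel and condition cannot be told apart. That difference rests in part on healthy replicate 8, which was on panel D at 0.30. The other panel D mice had -0.97, -1.30 and -1.50, the last of them within the range of panel G. The 3 healthy mice on the mixed panels lay between -0.92 and -0.56 (mean -0.69 ± 0.19, SD), so most of the healthy spread came from panel D. Across the mixed panels the tumor-bearing mice lay between -1.92 and -1.64 and did not overlap the healthy ones.

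Because every F3 level is set against 5 reference genes, Gapdh, Tbp and Ywhaz were also used alone. The day 14 difference of F3 was -0.84 against Gapdh, -0.73 against Tbp and -0.85 against Ywhaz. Each of these 3 placed tumor-bearing mice lower.

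The panel holds few of the genes that act with tissue factor. Of 30 listed coagulation, anticoagulant and fibrinolysis genes it measured 2, and neither passed the threshold on any day on which it was tested. Procr, the endothelial protein C receptor that helps activate the anticoagulant protein C, averaged -1.05 ± 0.19 (SD, n = 8) in day 14 healthy mice and -1.40 ± 0.58 (SD, n = 8) in mice with tumors, and its model difference was -0.34 ± 0.19 (SE; adjusted p = 0.57 by limma). F2, which encodes prothrombin and is made mainly in liver, was barely detected, with a day 14 value in 5 healthy and 3 tumor-bearing mice. Its day 14 difference was -1.02 ± 0.57 (SE; adjusted p = 0.577 by limma).

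Of the 4 protease-activated receptors, 2 were measured. F2r (PAR1, the main thrombin receptor) differed by -0.23 ± 0.28 (SE) at day 14, with an adjusted p of 0.79 by limma, and by 0.0134 without tumor-bearing replicate 15. F2rl1 (PAR2, cut by the tissue factor complex) differed by 0.04 ± 0.25 (SE; adjusted p = 0.971 by limma), and its sign turned without any 1 of healthy replicates 7 and 12 and tumor-bearing replicates 15 and 22, to -0.0648 at the lowest. Neither receptor gave a detectable difference at day 14, and each interval spans 0.

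Platelet genes gave no call either, 0 of 5 tested assays at day 14 with a median log2 difference of -0.10. Ppbp, a platelet granule chemokine precursor, differed by -2.23 ± 1.25 (SE; adjusted p = 0.549 by limma) and by -0.51 without healthy replicate 13. Ptafr, the receptor for platelet-activating factor, differed by -0.10 ± 0.18 (SE; adjusted p = 0.881 by limma), and by 0.0431 without tumor-bearing replicate 15. In the kinin and contact system, 0 of 4 tested assays passed. Serping1, the inhibitor of C1 and of contact proteases, differed by -0.21 ± 0.14 (SE; adjusted p = 0.648 by limma), and the bradykinin receptor gene Bdkrb2 by -0.71 ± 0.64 (SE; adjusted p = 0.701 by limma). Bdkrb2 stood at -12.21 in tumor-bearing replicate 15, and without that mouse its difference was -0.0696.

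The relatives of tissue factor in the class II cytokine receptor family, which carry signals of interferons and of interleukin 10 and its kin, gave no call at day 14. None of 9 tested assays passed, and their median difference was 0.06. Ifngr2, a chain of the interferon gamma receptor, differed by 0.15 ± 0.13 (SE), and Il28ra (now Ifnlr1, the interferon lambda receptor), in its second assay, by 0.27 ± 0.24 (SE), each with an adjusted p of 0.701 by limma.

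Known inducers of tissue factor and their signaling were measured by 24 assays of 19 genes, among them Tnf, Il1b, the NF-kappaB subunits Nfkb1 and Rela, and the AP-1 subunits Fos and Jun. At day 14 none passed, and the list's median difference was -0.01. The smallest p-values were those of Tlr4, the endotoxin receptor (0.24 ± 0.11, SE; adjusted p = 0.421 by limma), and of its adaptor Myd88 (0.18 ± 0.09, SE; adjusted p = 0.437 by limma). Among known dampers, 0 of 4 tested assays passed; Il10, an anti-inflammatory cytokine, differed by -0.16 ± 0.46 (SE; adjusted p = 0.92 by limma) and Pparg, the fat cell nuclear receptor, in its second assay, by -0.05 ± 0.16 (SE; adjusted p = 0.924 by limma). On days 7 and 21 none of the assays of these 7 lists passed the threshold either, against the 0% and 1.22% of all assays that did.

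**Figure D3:**
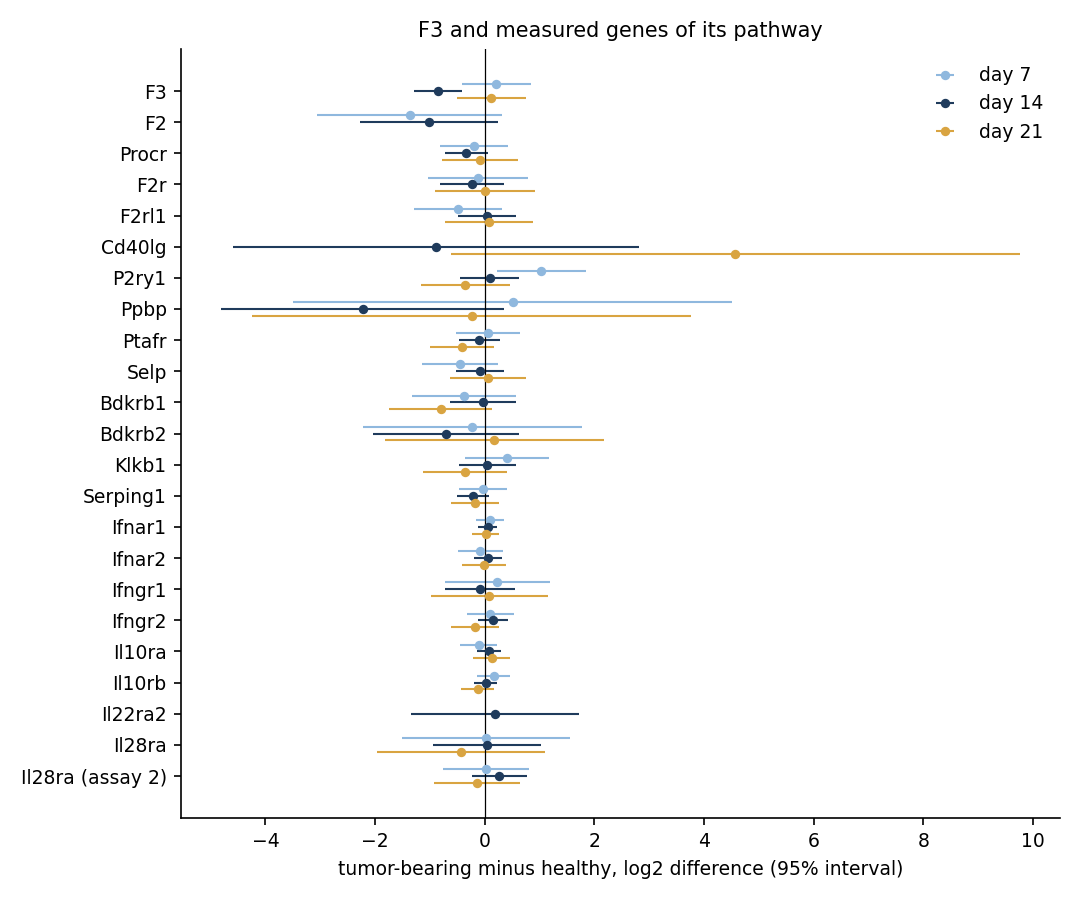
Log2 difference tumor-bearing minus healthy (x axis) with its 95% interval from the limma model, for F3 and every tested assay of the coagulation, protease-activated receptor, platelet, kinin and class II cytokine receptor lists, at day 7, day 14 and day 21. The F3 interval at day 14 runs from -1.29 to -0.42 and is a description, since this contrast chose the gene; none of the other assays drawn passed the adjusted threshold on any day.

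Markers of cell types were measured to describe the tissue around F3. The labels call it an infiltrate of immune, stromal and epithelial cells. Monocyte and macrophage markers (6 of 13 listed) had a value in every group, while the panel measured only 2 of 14 listed fibroblast and matrix genes, 2 of 10 epithelial and tumor cell genes and 1 of 12 endothelial genes, so the cells best known to carry tissue factor were thinly covered. At day 14, 10 assays of the marker lists passed, all in the neutrophil list but 1 of 3 tested fibroblast and matrix assays. None passed of 6 monocyte and macrophage, 2 epithelial and tumor cell and 1 endothelial tested assays. Nor did any of 4 T cell, 6 dendritic cell and 8 adipocyte assays. Of all assays 2.38% passed. The lists were chosen with earlier results of these data known, so such counts are descriptions. Neutrophil and granulocytic markers passed in 9 of 9 tested assays, with a median log2 difference of 2.17. They were those of the granule proteins Camp, Ltf, Prtn3 and Ela2 (now Elane), of S100a8 (2 assays) and S100a9, and of the receptors Fpr1 and Il8rb. Their log2 differences ran from 1.39 (Il8rb) to 4.81 (Camp). Of the 8 day 14 healthy mice, Prtn3 had a value in only 3 and Ela2 in 5. Ltf kept its call in 8 of 13 other settings and in 20 of 28 fits with 1 mouse left out, and the second S100a8 assay kept its own in 24 of 28 such fits. Ltbp4, a matrix protein that binds latent TGF-beta, passed downward in 1 of its 2 assays (-0.78, adjusted p = 0.046 by limma). It kept that call in 6 of 13 other settings and in 9 of 28 such fits. Its second assay was also lower (-0.68) but did not pass (adjusted p = 0.17 by limma). The 10 calls became 4 with missing reactions given the largest Cq, 3 among assays measured in all samples and 5 with only the day 14 groups in the fit. Only 3 neutrophil assays were measured in all samples, and the called Ltbp4 assay was not. Most of the 10 were therefore not tested in that setting. At day 21, 5 of 10 tested neutrophil assays passed upward (Camp, Ela2, Prtn3, Ltf and the integrin gene Itgb2l), beside 1.22% of all assays. The median log2 difference of the 10 was 2.50, with 3 mice per condition. Of the dendritic cell markers the chemokine receptor gene Ccr7 passed downward on that day (-1.18, adjusted p = 0.043 by limma). Itgb2l kept its call in 4 of 13 and Ccr7 in 7 of 14 other settings. Of the 3 day 21 healthy mice, Itgb2l and Prtn3 each had a value in 2. The summed level of the 3 neutrophil assays measured in all samples ran from 0.317 to 1.61 in healthy and from 0.896 to 7.27 in tumor-bearing mice at day 14, and the part of these cells in the F3 difference was not tested.

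The genes whose levels over the 26 samples were most like those of F3 were named by Pearson correlation of log2 levels among 408 assays with a value in all of them. The points share their reference genes and, in part, their panels. Pxmp2, a peroxisomal membrane protein, had r = 0.76, S100b, a calcium-binding protein, 0.73, and Krt7, a keratin of simple epithelia, 0.73. Next came Ephx2 (soluble epoxide hydrolase) at 0.72, Cntfr (the ciliary neurotrophic factor receptor) at 0.72 and Fgf10 (a growth factor made by mesenchymal cells) at 0.69, against a median of 0.11 over all assays. Most unlike F3 were Il8rb (now Cxcr2, a chemokine receptor of neutrophils) at -0.73, the formyl peptide receptor gene Fpr1 at -0.70 and S100a9 at -0.69, a calcium-binding protein abundant in neutrophils.

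The likeness was also measured within groups and without the mouse of highest F3. After each group's mean was subtracted, r with F3 was 0.71 for Pxmp2, 0.75 for Ephx2, 0.63 for Krt7, 0.62 for Cntfr and 0.61 for Fgf10, but 0.38 for S100b. Without healthy replicate 8 these within-group values were 0.39 for Pxmp2, 0.55 for Ephx2, 0.59 for Krt7, 0.48 for Cntfr, 0.52 for Fgf10 and 0.24 for S100b, so that 1 mouse carried much of the likeness of Pxmp2 and Ephx2. For the most unlike genes the value with all mice was -0.41 for Il8rb, -0.44 for Fpr1 and -0.33 for S100a9. Leaving out replicate 8 gave -0.55, -0.49 and -0.47 in the same order. Over all groups but without replicate 8, r fell to 0.53 for Pxmp2 and 0.50 for Ephx2 and stayed at 0.70 for S100b and 0.67 for Krt7. Only 2 of the 6 most like genes, S100b and Krt7, were also among the 6 most like without that mouse, along with Erbb2, Lifr, Hmgb1 and Atrn.

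**Figure D4:**
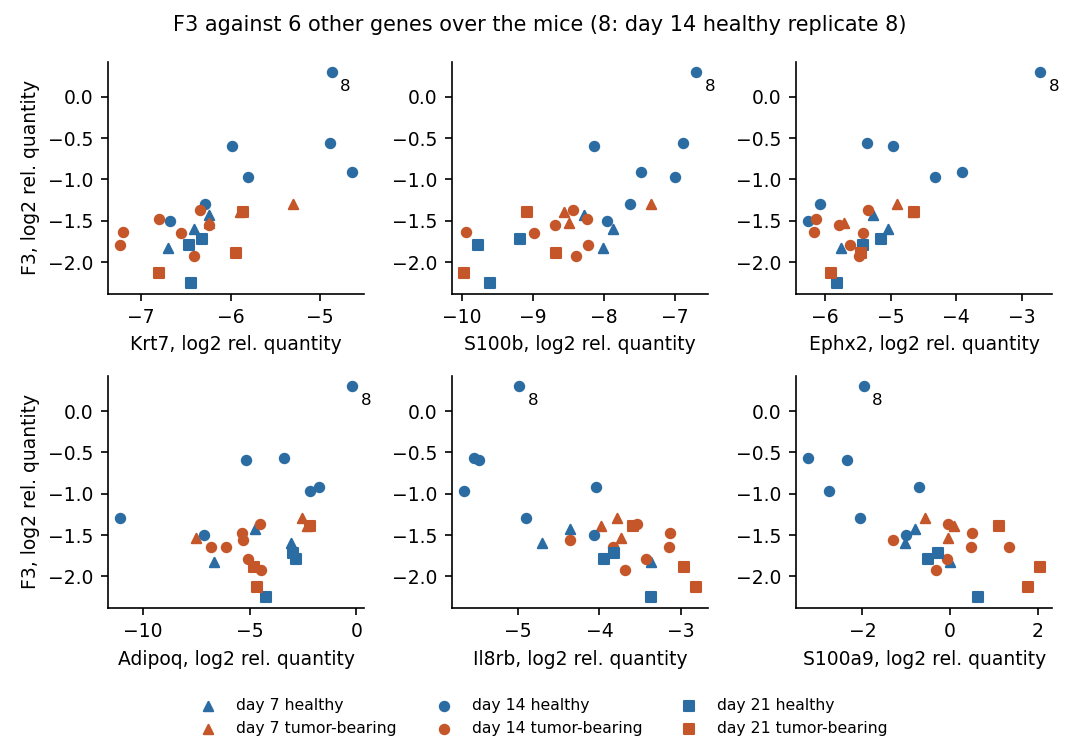
F3 log2 relative quantity (y axes) against that of 6 genes (x axes), 1 point per mouse; colour gives the condition and shape the day, and the number 8 marks day 14 healthy replicate 8. F3 rises with Krt7, S100b and Ephx2 (r = 0.73, 0.73 and 0.72) and falls with Il8rb and S100a9 (r = -0.73 and -0.69), and replicate 8 lies at the upper end of F3 and of Adipoq.

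Healthy replicate 8, the mouse with the highest F3, also stood apart in genes of fat cells. All 8 adipocyte assays were highest in it among the day 14 healthy mice. Adipoq, the gene of adiponectin, was at -0.19, against -11.08 to -1.75 (median -5.19) in the others, a 32-fold difference from the median. Resistin (Retn) was 15.5-fold, leptin (Lep) 8.93-fold, the fatty acid binding protein gene Fabp4 6.68-fold and the regulator Cebpa 3.54-fold above that median, but Pparg was only 1.57-fold and 1.26-fold above it in its 2 assays. The excess was not limited to fat cell genes. The housekeeping gene B2m was 57.7-fold and the growth factor gene Bmp6 8.82-fold (1.84-fold in its second assay) above the median of the others, and Cfd (the fat cell protease adipsin) 41.9-fold. B2m stood at 11.83, against 5.35 to 6.10 in the 6 other mice with a value. That excess rests on 1 reaction, and whether the reaction was faulty was not tested. The genes of this paragraph were named after their values were seen. Over 563 assays the median difference of this mouse was 0.15 on the log2 scale, and 12 assays were over 8-fold higher.

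The summed level of the 3 adipocyte assays measured in all samples was 41.4 in replicate 8 and at most 12.6 in any other mouse. Such a sum weights its assays by their level, and in replicate 8 most of it was Fabp4, at 5.27 on the log2 scale. That summed level is given further here. It ran from 3.87 to 41.4 in day 14 healthy and from 4.10 to 9.18 in day 14 tumor-bearing mice, and 0 of 8 adipocyte assays passed the threshold at day 14 (median log2 difference -0.55). Across the 26 samples, which share reference genes and panels, the mean log2 adipocyte level had r = 0.56 with F3, and 0.28 without replicate 8. Each list mean used only the assays measured in all samples. For the 3 such neutrophil assays r was -0.68, and -0.70 without that mouse. They include S100a9 and Fpr1, already named for their low r with F3, so this value is not separate from theirs. For the monocyte and macrophage list r was 0.02. The 1 endothelial assay had r = 0.60, and 0.58 without replicate 8. Fibroblast and matrix assays had 0.54 and 0.39, and housekeeping assays 0.40 and 0.35. The day 14 difference of F3 without replicate 8, -0.69, is that given above; the part of adipose tissue in the F3 levels of the other mice was not tested.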

How the data were processed

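RNA from 28 implants was reverse transcribed and run on TaqMan OpenArray panels, per the labels' protocols. The authors deposited raw Cq scores, normalized ratios and fold ratios of tumor-bearing over healthy mice; per the file headers the folds are 2 to the power of minus delta-delta Cq. From the values, each normalized ratio is 2 to the power of minus Cq less the mean Cq of 5 reference genes, Gapdh, Tbp and Ywhaz among them, to within 3.0e-05 cycles. The software calling Cq is not given in the sources used here. Reactions without Cq (2244 of 18144) were left missing.

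Log2 ratios entered limma 3.58.1 (R 4.3.3) with 6 group means and the panel as a random block (statmod 1.5.0; correlation 0.0535), over 609 assays with a value in at least 50% of the samples of 1 group and 2 values per group compared. P-values were adjusted by Benjamini-Hochberg per contrast (threshold 0.05). The procedure was tested on simulated data. Single-gene tests were two-sided exact permutation tests (scipy 1.17.1). The number of mice limits the precision.

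F3 and the gene lists were chosen with earlier results of these data known. The genes named were list members past the threshold, the 2 smallest p-values per pathway list at day 14, all coagulation and protease-activated receptor genes, and the 6 highest and 3 lowest correlations with F3; others, such as the genes high in 1 mouse, were named after their values were seen. Alternatives changed the block, panels, reference genes, missing values, filters, the prior and the samples; some results are not reported here. Promoter sequences are RefSeq's, build GRCm38.p6; the authors' assay annotation names no build. Gene symbols are the authors'.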

Additional observations from a re-analysis of the deposited data

Results flagged for a closer look

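The same-panel pairs of F3 ran in opposite directions on 2 days: tumor-bearing less healthy came to a mean of -1.05 (log2) at day 14, with each pair negative, while each pair at day 7 was positive. The difference between the days was not tested in the pairs.

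Single samples stood far from the rest of their group in 5 of 39 groups of 4 to 10 samples searched over 19 genes; chance places about 1 in 20 groups there. Tumor-bearing replicate 15 of day 14 had the lowest F2r (PAR1) of its group at -3.29 and the lowest Fgf10 at -7.85. F2rl1 (PAR2) was highest in day 14 healthy replicate 9, at -3.30, and lowest in day 14 tumor-bearing replicate 21, at -5.70. S100b was lowest in day 14 tumor-bearing replicate 22, at -9.94. F3 itself had no such sample in the day 14 groups.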

How the results depend on the processing

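The day 14 F3 difference stayed negative in the 13 other settings given here (-1.05 to -0.71) and all 28 fits that left out 1 mouse (-0.96 without healthy replicate 10 to -0.69 without healthy replicate 8); with the panel as a fixed block, or without panels D and G, it was -1.05. F3 was not among the assays measured in all samples and has no value in that setting. At day 7 the range was 0.15 to 0.27, and 0.10 to 0.30 with 1 mouse left out. At day 21 F3 turned negative against Gapdh alone (-0.0137) and Ywhaz alone (-0.0413); with 1 mouse left out it ran from -0.0784 to 0.28, negative without healthy replicate 25 (-0.05) or tumor-bearing replicate 27 (-0.0784). Setting missing reactions to the largest Cq gives 1 mouse of each day 14 group an extreme F3 value: the healthy steps became -1.70 (day 7 to 14), 2.67 (day 14 to 21) and 0.97 (day 7 to 21), and the tumor-bearing steps -2.62, 3.49 and 0.87. Their SE was 3.53 for the steps to or from day 14 and 4.18 for day 7 to 21. Gapdh alone turned the healthy day 7 to 21 step to 0.0442 and the tumor-bearing day 14 to 21 step to 0.0195; the latter was 0.000129 with a fixed block and ran from -0.36 to 0.00497 with 1 mouse left out (0.00497 without replicate 26).

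List members past the threshold at day 14 numbered 10, but 4 with gaps filled by the largest Cq, 3 over assays measured in all samples and 5 with only the groups of the contrast, and 7 to 10 with 1 mouse left out. In the same order all assays past it at day 14 fell from 14 to 4, 3 and 6, and to 9 against Ywhaz alone. The setting of assays measured in all samples holds 312 assays and only 3 of the neutrophil markers. Most of the 10 list members were therefore not tested in it. At day 21 the count of 7 became 0 with missing reactions filled, 1 over assays measured in all samples, 4 with a fixed block, and 2, 3 and 3 without healthy replicates 23, 24 and 25. The tumor-bearing day 7 to 21 count of 3 became 1, 0 and, against Gapdh alone, 11. Where not stated, the cause was not tested. Single reference genes and the correlations without replicate 8 were chosen after seeing the data. No replicate number is shared between groups, so mice could be matched only by panel. They were set side by side by panel, and 1 alternative setting held the panel as a fixed block. The exact permutation tests did not use this matching.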
